A study of Mus musculus with 9 samples.

Results

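The genes described here encode the nuclear-encoded subunits of respiratory complexes I, III and IV and of the ATP synthase, called complex V. They were taken by name from the array's annotation, as every gene whose symbol begins Nduf followed by a, b, c, s or v and a digit, Uqcr, Cox4 to Cox8, or Atp5. Only probe sets annotated to exactly 1 gene symbol were used, and a gene with several was read from the brightest. This gave 77 of the 18193 genes measured: 35 of complex I, 8 of complex III, 17 of complex IV and 17 of complex V.

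RNA came from 3 normal bone marrow populations of C57BL/6 mice of both sexes aged 4 to 10 weeks, each on 3 Affymetrix arrays (9 in all). Neutrophils were sorted as c-kit- Gr1+ Mac1+ cells. The more mature myeloblasts were c-kit+ Gr1+ Mac1+, and the less mature ones c-kit+ Gr1+ Mac1-, a gate that the labels also write as Mac1lo/-. The labels describe removal of cells bearing B220, TER119, CD3, CD4, CD8 or IL7Rα for the c-kit+ cells, after a magnetic split of marrow by c-kit, and say nothing of how many mice stood behind each array. No animal carried a mutation or was treated. Replicate arrays may therefore share mice, and a p-value here measures the spread between these arrays alone.

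Complex I takes electrons from NADH and complex III passes them by way of cytochrome c to complex IV, which hands them to oxygen. All 3 pump protons across the inner mitochondrial membrane, and the ATP synthase lets the protons back through its membrane ring while its F1 head makes ATP. Mature neutrophils are known for relying on glycolysis and for having few mitochondria, whereas their dividing precursors respire more.

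The arrays showed the sorted markers where the labels put them. Kit, the c-kit receptor, stood at 6.79 to 8.44 in neutrophils, 11.64 to 11.77 in Mac1+ myeloblasts and 11.56 to 11.66 in Mac1- myeloblasts, on the log2(intensity + 16) scale used for every level below. Itgam, the alpha chain of Mac1, stood at 11.00 to 11.85 in neutrophils, 9.47 to 9.87 in Mac1+ myeloblasts and 6.41 to 6.49 in Mac1- myeloblasts. The first neutrophil array stood apart from the other two. Mpo, a granule enzyme made by promyelocytes and their precursors, was at 12.80 there and at 10.76 and 9.63 on the other neutrophil arrays, against 13.84 to 14.19 in Mac1+ and 13.93 to 14.20 in Mac1- myeloblasts. Summed intensities of B-cell markers ran from 1059 to 2679 in neutrophils, 3443 to 13095 in Mac1+ and 9051 to 13361 in Mac1- myeloblasts, and those of T- and NK-cell markers from 508 to 846 in neutrophils, 10820 to 12014 in Mac1+ and 7695 to 8138 in Mac1- myeloblasts. Monocyte and macrophage markers summed to 15370 to 22116 in neutrophils, 3704 to 4735 in Mac1+ and 38584 to 41437 in Mac1- myeloblasts. Of the 6 B-cell markers, Pax5 was at no more than 6.00 on any array, while Ebf1, also found in B-cell precursors, was at 9.73 to 11.05 in neutrophils, 10.90 to 13.53 in Mac1+ and 12.79 to 13.48 in Mac1- myeloblasts. Cd79b was at 6.2 to 6.6 in neutrophils, 9.1 to 9.6 in Mac1+ and 9.9 to 10.2 in Mac1- myeloblasts. Igll1 was at 5.9 to 7.4, 9.3 to 9.4 and 9.5 to 9.6 in the same order. Cd79a and Vpreb1 were both highest on the first neutrophil array, at 7.66 and 7.15. Of the 6 T- and NK-cell markers, Cd3e was at no more than 5.29 on any array, Nkg7 was at 6.06 to 8.65 in neutrophils, 13.38 to 13.54 in Mac1+ and 12.89 to 12.97 in Mac1- myeloblasts, and Cd3d was at 8.54 to 8.97 in neutrophils and at no more than 6.07 in myeloblasts. The part of other cell types in the results was not tested. The scale has its floor at 4, the log2 of the added 16, and a gene was called dim where its mean level lay below 5.93, the 40th percentile of all genes.

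Neutrophils held less RNA of most respiratory chain and ATP synthase genes than Mac1+ myeloblasts did. Of the 77 genes, 55 were lower in neutrophils, none was higher and 22 were not called (limma's moderated test with Benjamini-Hochberg adjustment over all genes, called at an adjusted p under 0.05). Of all 18193 genes, 28.5% were lower and 20.0% were higher by the same rule, and of the 10916 that were not dim, 44.7% were lower. The median difference of the 77 genes was -0.94 log2 units, against 0.05 for all genes and -0.42 for the 10916 that were not dim. By complex, 24 of 35 genes of complex I fell (median -0.94), 7 of 8 of complex III (-1.18), 10 of 17 of complex IV (-0.73) and 14 of 17 of complex V (-1.09). In sorted cell populations read in bulk, fewer cells that express a gene and less RNA per cell cannot be told apart.

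Against Mac1- myeloblasts 52 of the 77 genes were lower in neutrophils, none was higher and 25 were not called. The share of all genes called lower was 30.2%, and 22.8% were called higher, and of the genes that were not dim 45.7% were lower. Here 22 of 35 complex I genes fell (median -0.91), 7 of 8 of complex III (-1.21), 9 of 17 of complex IV (-0.85) and 14 of 17 of complex V (-1.09). Both comparisons use the same neutrophil arrays. For 53 of the 77 genes all 3 neutrophil arrays lay below all 6 myeloblast arrays, as they did for 27.9% of all genes, and for none did they lie above, as they did for 20.1%.

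The median level of the 77 genes was 11.44, 11.14 and 10.92 on the neutrophil arrays, 12.39, 12.40 and 12.48 on the Mac1+ arrays and 12.60, 12.46 and 12.53 on the Mac1- arrays. The neutrophil arrays were thus the lowest, and the myeloblast arrays lay close together. Within neutrophils the spread was wider: the median standard deviation of the 77 genes was 0.34 there, 0.08 in Mac1+ and 0.09 in Mac1- myeloblasts. The first neutrophil array was the highest of its population for 62 of the 77 genes. Without it, 62 genes were lower than in Mac1+ myeloblasts (31.5% of all genes) and 64 lower than in Mac1- myeloblasts (33.3%), with medians of -1.10 and -1.02. All 55 and all 52 of the genes called with 9 arrays were called again without it.

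**Figure D1:**
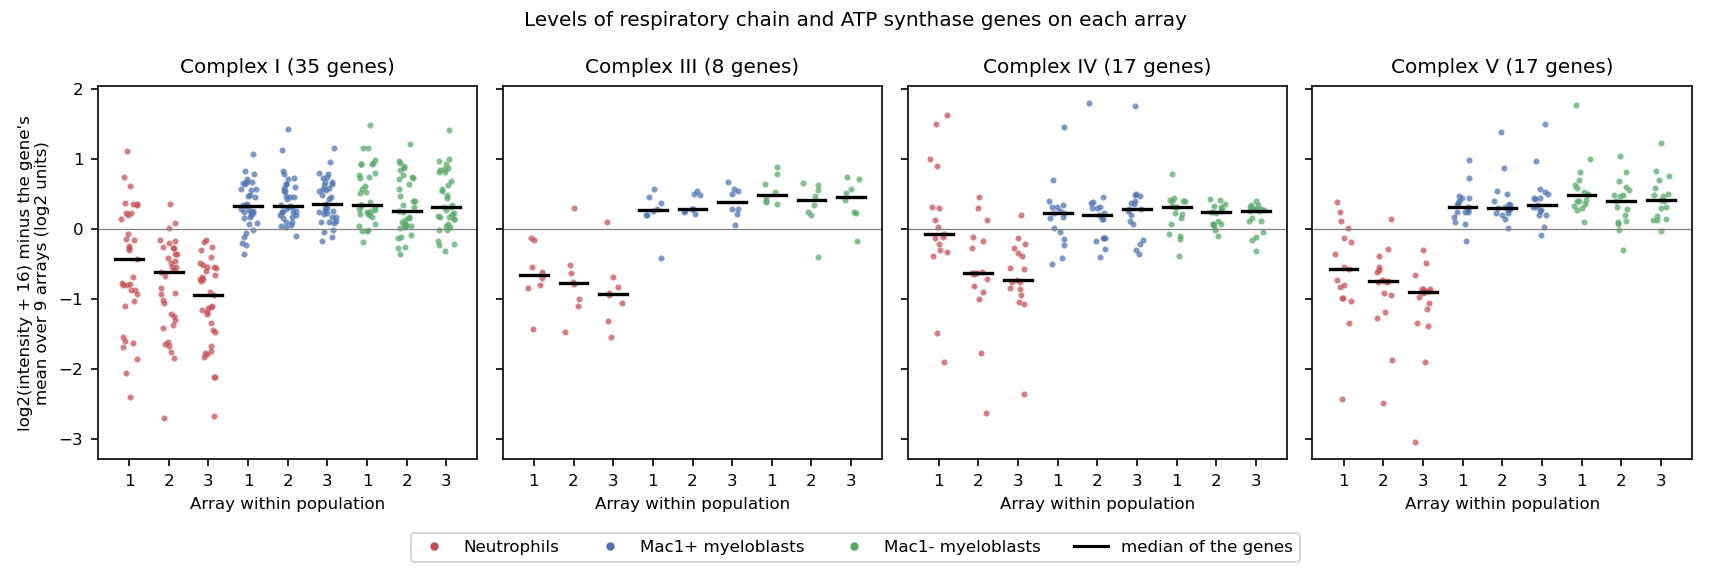
Each point is 1 gene on 1 array, as its log2(intensity + 16) minus its own mean over the 9 arrays, in log2 units; columns are arrays 1 to 3 of neutrophils, Mac1+ and Mac1- myeloblasts, and bars are medians over the genes of complex I (35), III (8), IV (17) and V (17). The neutrophil medians lie below 0 in every complex and are highest on array 1 in each, and both myeloblast populations lie above 0.

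**Figure D2:**
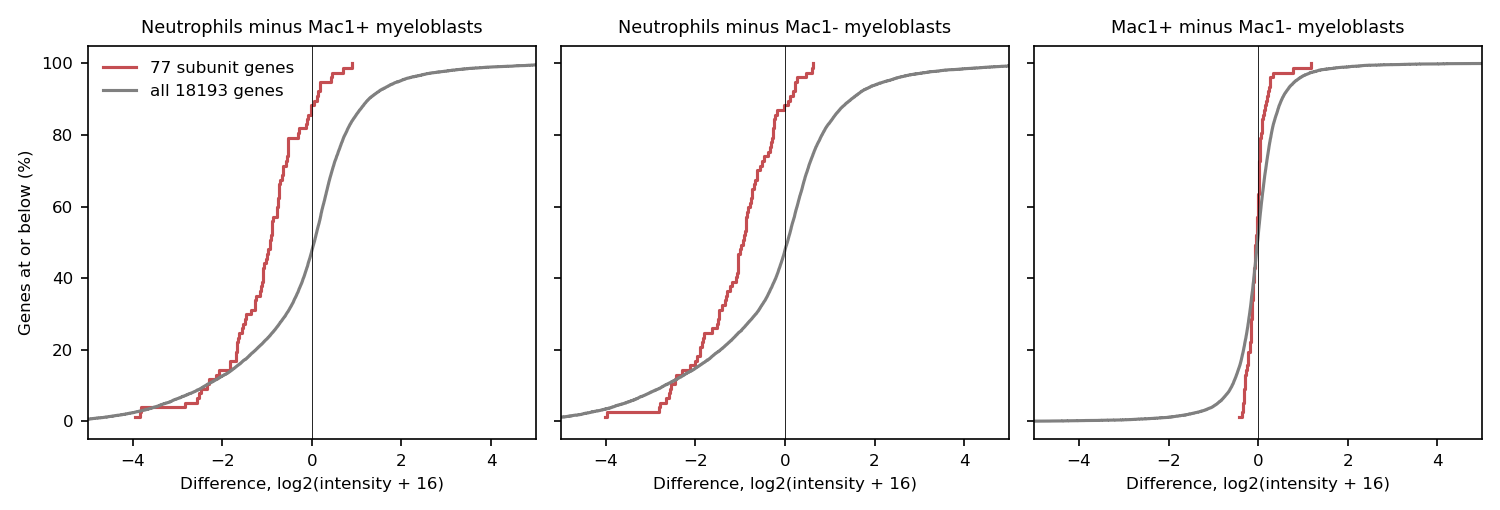
Cumulative share (%) of the 77 subunit genes (red) and of all 18193 genes (grey) at or below each difference in log2(intensity + 16), for neutrophils minus Mac1+, neutrophils minus Mac1- and Mac1+ minus Mac1- myeloblasts. In the panels with neutrophils the subunit genes cross their median at -0.94, and in the third panel they lie within a narrow band around -0.05.

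Promoter sequence was at hand for 63 of the 77 genes, as 68 windows of 250 bases before to 50 after a RefSeq transcription start in GRCm38.p6. They were searched on both strands for the core bound by NRF1 (nuclear respiratory factor 1), which is GCGCA, any base and GCGC, for CCGGAAG, an ETS core of the kind bound by GABP, and for a YY1 motif, AAGATGG followed directly by CGG. The NRF1 core was in 20.6% of the genes' windows, 4.6% of all 32851 windows of the table and 7.45% of the windows of genes on the array. The shares were 22.1%, 8.86% and 13.0% for the ETS core and 5.88%, 0.852% and 1.36% for the YY1 motif, and no 2 motifs overlapped in these genes' windows. Among the genes with a window, the NRF1 core was found for 9 of the 47 that were lower in neutrophils than in Mac1+ myeloblasts and for 4 of the 16 not called, and the ETS core for 12 of 47 and 3 of 16. A match describes letters in the window and not a bound site. The windows below begin with those of the 3 genes for the c subunit of the ATP synthase. These genes encode the same mature protein and fell by unlike amounts. For each other complex the gene shown had the largest fall against Mac1+ myeloblasts among those whose window held an NRF1 core. These were Ndufa5, which had the largest fall of all complex I genes, and Uqcrc1 and Cox6a1, which hold 2 NRF1 cores each. In complexes III and IV no other gene with a window held the core. Cox6a1 was called lower than in Mac1+ but not than in Mac1- myeloblasts, and its call held in 7 of the 19 alternative analyses. The window of Ndufb4, which was dim and not called, held 3 NRF1 cores, the most among the 63 genes. The sequences run 5′ to 3′ on the gene's strand, with the NRF1 cores, and in Cox6a1 also the reverse complement of the ETS core at bases 235 to 241, in capitals.
Atp5g1: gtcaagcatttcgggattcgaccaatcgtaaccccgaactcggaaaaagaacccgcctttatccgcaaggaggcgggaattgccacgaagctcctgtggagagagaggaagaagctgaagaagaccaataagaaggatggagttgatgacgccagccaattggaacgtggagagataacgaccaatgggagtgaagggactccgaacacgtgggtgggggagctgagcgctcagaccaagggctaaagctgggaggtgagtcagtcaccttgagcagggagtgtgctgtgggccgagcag
Atp5g2: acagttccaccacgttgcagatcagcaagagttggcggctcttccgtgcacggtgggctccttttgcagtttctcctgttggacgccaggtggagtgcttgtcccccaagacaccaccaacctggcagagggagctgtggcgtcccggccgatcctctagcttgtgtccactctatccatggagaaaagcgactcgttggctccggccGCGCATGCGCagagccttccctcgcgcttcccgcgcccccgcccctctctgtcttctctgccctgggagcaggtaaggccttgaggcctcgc
Atp5g3: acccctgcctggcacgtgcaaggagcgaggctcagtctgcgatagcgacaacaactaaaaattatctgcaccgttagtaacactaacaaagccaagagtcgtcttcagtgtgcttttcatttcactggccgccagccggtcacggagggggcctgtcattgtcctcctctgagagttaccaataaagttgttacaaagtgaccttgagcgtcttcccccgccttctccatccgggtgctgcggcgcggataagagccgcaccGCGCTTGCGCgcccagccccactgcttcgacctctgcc
Ndufa5: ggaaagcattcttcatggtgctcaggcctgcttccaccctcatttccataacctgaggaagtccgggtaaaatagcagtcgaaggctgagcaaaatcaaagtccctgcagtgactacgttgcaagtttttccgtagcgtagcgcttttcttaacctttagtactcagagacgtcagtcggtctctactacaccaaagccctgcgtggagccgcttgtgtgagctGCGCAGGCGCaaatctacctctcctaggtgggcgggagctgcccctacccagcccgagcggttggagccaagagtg
Uqcrc1: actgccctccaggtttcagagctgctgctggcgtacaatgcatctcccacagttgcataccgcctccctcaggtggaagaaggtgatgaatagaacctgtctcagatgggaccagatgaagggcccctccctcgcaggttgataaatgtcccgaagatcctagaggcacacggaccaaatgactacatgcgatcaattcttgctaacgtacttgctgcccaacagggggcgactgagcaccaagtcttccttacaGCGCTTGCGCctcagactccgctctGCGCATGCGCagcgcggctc
Cox6a1: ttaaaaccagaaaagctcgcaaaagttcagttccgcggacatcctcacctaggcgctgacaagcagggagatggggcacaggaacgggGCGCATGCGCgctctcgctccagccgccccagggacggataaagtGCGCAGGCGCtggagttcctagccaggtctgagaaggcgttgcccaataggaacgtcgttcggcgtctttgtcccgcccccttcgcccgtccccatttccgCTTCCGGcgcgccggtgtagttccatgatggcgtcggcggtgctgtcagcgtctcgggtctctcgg
Atp5g1 lies on the minus strand at chr11:96075582-96075881 and held none of the motifs. The Atp5g2 window, chr15:102670998-102671297 on the minus strand, held an NRF1 core at bases 209 to 218. In Atp5g3, chr2:73911277-73911576 on the minus strand, the core was at bases 263 to 272, past the start. Ndufa5, chr6:24527641-24527940 on the minus strand, had it at bases 225 to 234. Uqcrc1, chr9:108936398-108936697 on the plus strand, had cores at bases 256 to 265 and 281 to 290, and Cox6a1, chr5:115348909-115349208 on the minus strand, at bases 89 to 98 and 134 to 143.

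Among complex I genes the 6 core subunits, which carry out electron transfer and quinone reduction, all fell in neutrophils, by 0.58 to 2.15 log2 units against Mac1+ myeloblasts. The shares lower by the same rule were 28.5% of all genes and 44.7% of those not dim. Ndufs3, a core subunit of the matrix arm, had 9.99, 9.34 and 9.34 in neutrophils, 11.66, 11.69 and 11.76 in Mac1+ myeloblasts and 12.04, 11.96 and 12.02 in Mac1- myeloblasts. Its neutrophil arrays lay below all 6 others, and it was 4.43-fold lower than in Mac1+ myeloblasts (log2 difference -2.15 ± 0.19 SE, limma adjusted p = 1.39e-05). Folds are ratios of intensity + 16 and so understate the change of dim genes. Ndufv1, which binds NADH and FMN, and Ndufv2, its iron-sulfur partner, differed by -1.70 ± 0.17 and -1.83 ± 0.14 from Mac1+ myeloblasts. Ndufs8 and Ndufs7, which carry iron-sulfur clusters on the way to quinone, differed by -1.55 ± 0.16 and -1.03 ± 0.21. The smallest fall was that of Ndufs1, the large iron-sulfur subunit, at 10.43, 11.06 and 10.92 in neutrophils, 11.29, 11.33 and 11.53 in Mac1+ and 11.61, 11.36 and 11.46 in Mac1- myeloblasts. Its groups did not overlap either, but its call against Mac1+ myeloblasts (-0.58 ± 0.19, limma adjusted p = 0.031) held in 11 of the 19 alternative analyses. It was lost without any 1 of the Mac1+ arrays or the third Mac1- array, under quantile normalization or median centring, with the replicate block and when only neutrophils and Mac1+ myeloblasts were fitted.

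Accessory subunits of complex I, which build its shell and are needed for its assembly, ranged more widely. Their median was -0.75 and their differences from Mac1+ myeloblasts ran from -3.82 to 0.18. Of the 27, 17 were lower and 10 were not called, beside 28.5% of all genes lower and 44.7% of those not dim. The largest fall was that of Ndufa5, a subunit of the matrix arm, with 7.65, 7.35 and 7.37 in neutrophils, 11.12, 11.49 and 11.21 in Mac1+ and 11.54, 11.27 and 11.47 in Mac1- myeloblasts. That is over 3 log2 units between the highest neutrophil and the lowest myeloblast array. It was 14.1-fold lower than in Mac1+ myeloblasts (-3.82 ± 0.16, limma adjusted p = 1.83e-07) and 15.7-fold lower than in Mac1- myeloblasts (-3.97 ± 0.16), and its other probe set differed by -3.48 from Mac1+. Ndufb2, of the membrane arm, had 8.61, 8.45 and 8.18 in neutrophils, 11.08, 11.42 and 11.26 in Mac1+ and 11.46, 11.03 and 11.15 in Mac1- myeloblasts. Its neutrophil arrays also lay below every myeloblast array, and it was 7.16-fold lower than in Mac1+ myeloblasts (-2.84 ± 0.18, limma adjusted p = 1.69e-06). Ndufa12, an accessory subunit of the matrix arm, had 9.74, 9.60 and 9.17 in neutrophils, 11.93, 12.11 and 12.02 in Mac1+ and 12.43, 12.22 and 12.28 in Mac1- myeloblasts. It was 5.72-fold lower than in Mac1+ myeloblasts (-2.52 ± 0.17), and its 3 probe sets above the dim limit, all of kinds that can match other transcripts, were lower alike, whereas the remaining one was dim and differed by -0.05. Ndufc2, Ndufb5 and Ndufc1, also of the membrane arm, and Ndufa9, which sits where the 2 arms meet, followed at -2.48 ± 0.12, -2.35 ± 0.14, -2.08 ± 0.22 and -2.29 ± 0.19. Ndufs4 and Ndufa3 were called lower too, but their probe sets disagreed. Against Mac1- myeloblasts an unused set of Ndufs4 was called higher, by 1.77, and its others were not called (-0.27 and -0.69). For Ndufa3 an unused set was called higher, by 0.92, and another lower, by -0.65. Under the mean over probe sets neither gene was called against either myeloblast population.

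The accessory subunits that were not called against Mac1+ myeloblasts were Ndufa2, Ndufa6, Ndufa7, Ndufa8, Ndufa13, Ndufb4, Ndufb7, Ndufb9, Ndufb11 and Ndufs5. Ndufa8, which faces the intermembrane space, had 12.43, 11.82 and 11.62 in neutrophils, 11.58, 11.83 and 11.92 in Mac1+ and 11.88, 11.53 and 11.63 in Mac1- myeloblasts. The populations overlapped, and the difference from Mac1+ myeloblasts was 0.18 ± 0.23 (limma adjusted p = 0.54). Ndufa13, also known as Grim19, had 13.01, 12.25 and 12.12 in neutrophils, 12.76, 12.71 and 12.84 in Mac1+ and 12.83, 12.71 and 12.73 in Mac1- myeloblasts. Its first neutrophil array was the highest of all 9 and the other neutrophil arrays were the lowest. Ndufb11 was at 13.16 on the first neutrophil array and 12.41 and 12.22 on the others, against 13.13 to 13.21 in Mac1+ and 13.02 to 13.21 in Mac1- myeloblasts. Ndufb7 had 13.08, 12.24 and 11.99 in neutrophils, 12.95 to 12.99 in Mac1+ and 12.68 to 12.71 in Mac1- myeloblasts. Ndufa2 had 12.59, 11.74 and 11.46 in neutrophils, against 12.52 to 12.66 in Mac1+ and 12.51 to 12.60 in Mac1- myeloblasts. Without the first neutrophil array these last 4 genes were called lower than in Mac1+ myeloblasts, by -0.59 (Ndufa13), -0.84 (Ndufb11), -0.85 (Ndufb7) and -0.98 (Ndufa2). Ndufb9 had 12.69, 12.17 and 11.85 in neutrophils, 12.22, 12.39 and 12.44 in Mac1+ and 12.61, 12.25 and 12.38 in Mac1- myeloblasts, and its groups overlapped. Ndufa6 had 11.92, 11.41 and 11.12 in neutrophils, 11.98 to 12.02 in Mac1+ and 11.67 to 12.00 in Mac1- myeloblasts, apart from Mac1+ but not from Mac1- myeloblasts. Ndufa7 had 11.44, 10.87 and 10.69 in neutrophils, 10.88 to 11.03 in Mac1+ and 11.15 to 11.42 in Mac1- myeloblasts, with overlap. Its unused probe sets, none of them dim, were higher in neutrophils than in Mac1- myeloblasts by 0.13, 0.62, 0.85 and 0.48, of which 0.62 and 0.85 were called. Under the mean over probe sets Ndufa7 was called higher in neutrophils than in Mac1+ myeloblasts. Ndufs5, which faces the intermembrane space, had 9.70, 10.21 and 9.86 in neutrophils, 10.11 to 10.32 in Mac1+ and 10.11 to 10.41 in Mac1- myeloblasts, its groups overlapping as well. Ndufb4 was read from a dim probe set here, at 5.58, 4.56 and 4.68 in neutrophils, 4.71 to 4.98 in Mac1+ and at most 4.88 in Mac1- myeloblasts, and brighter ones that it shares with its copies Ndufb4b and Ndufb4c were left out by the rule.

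Ndufa4 bears a complex I name but is now placed in complex IV. It had 11.14, 10.72 and 10.34 in neutrophils, 12.59, 12.56 and 12.57 in Mac1+ and 12.79, 12.74 and 12.70 in Mac1- myeloblasts. The neutrophil arrays lay below all others, and it was 3.58-fold lower than in Mac1+ myeloblasts (-1.84 ± 0.20, limma adjusted p = 5.02e-05). Its relative Ndufa4l2, known as a target of hypoxia-inducible factor, was dim, at 5.78, 5.02 and 4.10 in neutrophils, 4.30 to 4.75 in Mac1+ and 4.40 to 4.62 in Mac1- myeloblasts. These values overlapped and it was not called.

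**Figure D3:**
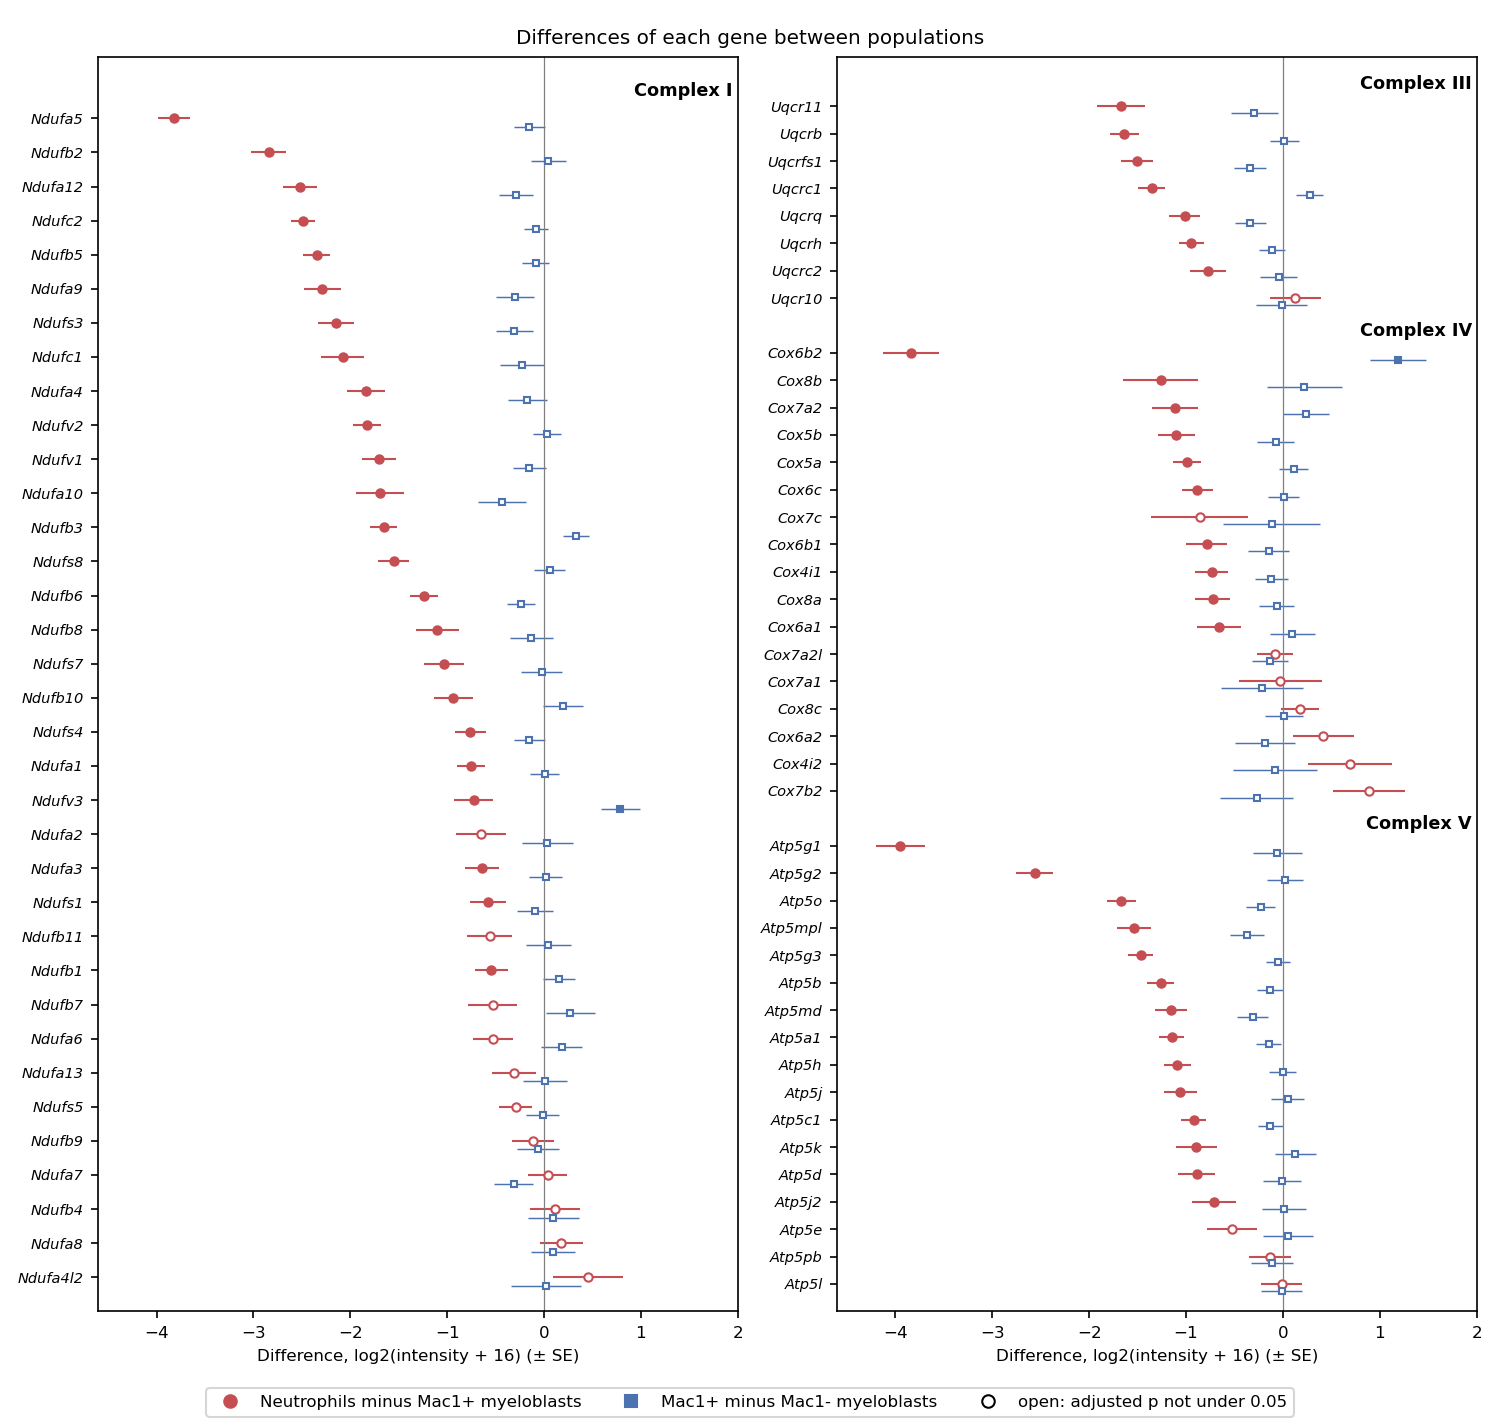
Difference of each gene in log2(intensity + 16) with its SE, as neutrophils minus Mac1+ myeloblasts (red circles) and Mac1+ minus Mac1- myeloblasts (blue squares); open symbols mark an adjusted p of 0.05 or more. Red symbols reach -3.82 (Ndufa5), -1.67 (Uqcr11), -3.84 (Cox6b2) and -3.95 (Atp5g1) at the top of complexes I, III, IV and V, and only Ndufv3 and Cox6b2 have a filled blue symbol.

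Complex III fell nearly as a whole. The Rieske iron-sulfur protein Uqcrfs1, which passes electrons on toward cytochrome c, had 10.56, 10.99 and 11.07 in neutrophils, 12.36, 12.28 and 12.48 in Mac1+ and 12.78, 12.65 and 12.71 in Mac1- myeloblasts. All 3 groups were apart, with the neutrophils lowest and 2.84-fold lower than Mac1+ myeloblasts (-1.50 ± 0.17, limma adjusted p = 6.12e-05). The core proteins Uqcrc1 and Uqcrc2, which hold the complex together on the matrix side, were 2.55-fold and 1.71-fold lower than in Mac1+ myeloblasts (-1.35 ± 0.14 and -0.78 ± 0.19). Of the 5 small subunits 4 fell, beside 28.5% of all genes and 44.7% of those not dim. Uqcr11 had 10.56, 9.70 and 9.62 in neutrophils, 11.46, 11.72 and 11.71 in Mac1+ and 12.06, 11.81 and 11.91 in Mac1- myeloblasts (neutrophils against Mac1+: -1.67 ± 0.25). Uqcrb, which lies next to the quinone pocket, had 12.73, 12.46 and 12.26 in neutrophils, 14.14, 14.07 and 14.14 in Mac1+ and 14.10, 14.12 and 14.09 in Mac1- myeloblasts (-1.64 ± 0.15). For both, every neutrophil array was below every myeloblast array. Uqcrh, the hinge protein, differed by -0.95 ± 0.13, and Uqcrq by -1.01 ± 0.16. The probe sets of Uqcrq disagreed: 1 that was not used was higher in neutrophils, by 2.17, and another was lower by -0.98. Uqcr10 alone was not called (0.13 ± 0.26), at 8.79, 9.25 and 9.05 in neutrophils, 8.54 to 9.17 in Mac1+ and 8.55 to 9.41 in Mac1- myeloblasts, with all groups overlapping.

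Complex IV has widely expressed subunits and tissue-restricted forms of some of them. Against Mac1+ myeloblasts 8 of 9 widely expressed subunits were lower (median -0.86, all between -1.12 and -0.66), and so were 2 of 7 tissue-restricted forms, beside 28.5% of all genes. Of these 7 forms 3 (Cox4i2, Cox7a1 and Cox7b2) were dim, and the difference between the 2 kinds of subunit was not tested. Cox4i1, which binds ATP and tunes the enzyme, had 13.04, 12.62 and 12.49 in neutrophils, 13.42, 13.39 and 13.54 in Mac1+ and 13.64, 13.48 and 13.59 in Mac1- myeloblasts. Its neutrophil arrays were the lowest, 1.66-fold below Mac1+ myeloblasts (-0.73 ± 0.17, limma adjusted p = 0.0056). Its counterpart Cox4i2, known from lung, was dim on most arrays, at 6.95, 5.20 and 5.10 in neutrophils, 4.81 to 5.18 in Mac1+ and 4.93 to 5.27 in Mac1- myeloblasts. Only the first neutrophil array stood out, and it was not called. Cox5b and Cox5a, which sit on the matrix side, differed by -1.10 ± 0.19 and -0.99 ± 0.15. Cox5b had 12.81, 12.25 and 12.10 in neutrophils, 13.46, 13.45 and 13.55 in Mac1+ and 13.59, 13.56 and 13.54 in Mac1- myeloblasts. Cox6c differed by -0.88 ± 0.16.

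The Cox6b pair, which bridges the enzyme's dimer, went the same way with unlike sizes. Cox6b1 had 13.06, 12.41 and 12.18 in neutrophils, 13.35, 13.33 and 13.33 in Mac1+ and 13.52, 13.46 and 13.47 in Mac1- myeloblasts (neutrophils against Mac1+: -0.79 ± 0.21, limma adjusted p = 0.014). Cox6b2, known from testis, had 5.73, 4.59 and 4.86 in neutrophils, 8.68, 9.03 and 8.99 in Mac1+ and 8.01, 7.65 and 7.48 in Mac1- myeloblasts. It was below the dim limit on every neutrophil array and well above it in both myeloblast populations, 14.3-fold lower in neutrophils than in Mac1+ myeloblasts (-3.84 ± 0.29, limma adjusted p = 5.13e-06) and 6.29-fold lower than in Mac1- myeloblasts (-2.65 ± 0.29). It was read from a single probe set.

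Among the other pairs of forms, Cox6a1 and Cox6a2 are alternatives for the subunit that helps to regulate the enzyme. Cox6a1 had 13.23, 12.47 and 12.38 in neutrophils, 13.26, 13.33 and 13.46 in Mac1+ and 13.41, 13.14 and 13.21 in Mac1- myeloblasts. It was called against Mac1+ (-0.66 ± 0.23, limma adjusted p = 0.040) but not against Mac1- myeloblasts (-0.56 ± 0.23), and the call against Mac1+ held in 7 of the 19 alternative analyses. Cox6a2, the heart and muscle form, was at 7.89, 7.30 and 6.43 in neutrophils, 6.76 to 6.82 in Mac1+ and 6.88 to 7.07 in Mac1- myeloblasts, with overlap and no call. Cox7a2 had 12.74, 12.04 and 11.79 in neutrophils, 13.25, 13.31 and 13.36 in Mac1+ and 13.26, 12.93 and 13.02 in Mac1- myeloblasts (-1.12 ± 0.24 against Mac1+), all neutrophil arrays being lower. The muscle form Cox7a1 was dim, at 6.35, 4.35 and 5.08 in neutrophils, 5.37, 5.07 and 5.43 in Mac1+ and 5.28, 5.60 and 5.63 in Mac1- myeloblasts, and was not called (-0.03 ± 0.43). Cox7a2l, known as a factor in supercomplexes of complexes III and IV, had 13.17, 12.60 and 12.53 in neutrophils, 12.83, 12.75 and 12.98 in Mac1+ and 13.04, 12.94 and 12.99 in Mac1- myeloblasts. Its activity in these mice was not measured, and only RNA was read. Cox7a2l was not called from this probe set (-0.09 ± 0.19), while 2 unused probe sets were lower in neutrophils, by -0.51 and -0.53. Cox8a had 12.13, 11.64 and 11.50 in neutrophils, 12.49, 12.40 and 12.55 in Mac1+ and 12.58, 12.52 and 12.54 in Mac1- myeloblasts (-0.73 ± 0.18). Cox8b, the heart and muscle form, was at 6.05, 4.25 and 5.44 in neutrophils, 6.72, 6.31 and 6.50 in Mac1+ and 6.24, 6.33 and 6.30 in Mac1- myeloblasts, lowest in neutrophils, where the second array was near the floor of the scale (-1.26 ± 0.39 against Mac1+, limma adjusted p = 0.024). Its call held in 15 of the 19 alternative analyses against Mac1+ myeloblasts and in 8 of 19 against Mac1- myeloblasts, and was lost in both with an added constant of 1. The testis form Cox8c was at 8.39, 7.90 and 8.27 in neutrophils, 7.77 to 8.33 in Mac1+ and 7.92 to 8.14 in Mac1- myeloblasts, and was not called from this probe set. Its unused probe set was called higher in neutrophils than in Mac1- myeloblasts, by 2.19. Under the mean over probe sets Cox8c was called higher in neutrophils than in either myeloblast population. Cox7b2 was dim, at 7.10, 5.73 and 5.46 in neutrophils, 5.17 to 5.24 in Mac1+ and 5.27 to 5.70 in Mac1- myeloblasts, and was not called. Cox7c, a widely expressed subunit, spread most among the neutrophil arrays, at 5.80, 8.17 and 7.32, against 7.57 to 8.20 in Mac1+ and 8.02 to 8.13 in Mac1- myeloblasts, and was not called (-0.86 ± 0.50).

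In each part of the ATP synthase most genes were lower in neutrophils than in Mac1+ myeloblasts, beside 28.5% of all genes and 44.7% of those not dim. The c subunit, whose ring turns in the membrane as protons pass, is encoded by 3 genes, and all 3 were lower. Atp5g1 had 7.40, 7.34 and 6.77 in neutrophils, 10.82, 11.22 and 11.33 in Mac1+ and 11.61, 10.87 and 11.06 in Mac1- myeloblasts. This was the largest fall among the 77 genes, 15.5-fold against Mac1+ (-3.95 ± 0.25, limma adjusted p = 1.79e-06) and 16.1-fold against Mac1- myeloblasts (-4.01 ± 0.25). Atp5g2 had 10.08, 9.55 and 9.52 in neutrophils, 12.16, 12.30 and 12.39 in Mac1+ and 12.42, 12.12 and 12.25 in Mac1- myeloblasts, 5.91-fold lower than Mac1+ (-2.56 ± 0.19). Atp5g3 had 12.07, 12.11 and 12.01 in neutrophils, 13.51, 13.46 and 13.64 in Mac1+ and 13.65, 13.56 and 13.56 in Mac1- myeloblasts, 2.77-fold lower than Mac1+ (-1.47 ± 0.13). None of the 3 overlapped between neutrophils and either myeloblast population, and the myeloblast populations overlapped for each.

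The catalytic F1 head followed with smaller steps. Its alpha and beta subunits Atp5a1 and Atp5b, which hold the catalytic sites, were lower than in Mac1+ myeloblasts by 2.21-fold and 2.40-fold (-1.15 ± 0.13 and -1.26 ± 0.14). Atp5b stood at 12.11, 12.38 and 12.28 in neutrophils, 13.48, 13.43 and 13.65 in Mac1+ and 13.67, 13.64 and 13.65 in Mac1- myeloblasts, clear of overlap. The central stalk subunits Atp5c1 and Atp5d differed by -0.92 ± 0.13 and -0.89 ± 0.19, and a second, unused probe set of Atp5c1 was higher in neutrophils by 0.89. Atp5e, the epsilon subunit, was not called (-0.53 ± 0.26), with 11.97, 11.34 and 10.86 in neutrophils, 11.82 to 12.01 in Mac1+ and 11.72 to 12.03 in Mac1- myeloblasts. Its first neutrophil array lay among the myeloblasts and the other two below them. Of the peripheral stalk, Atp5o, Atp5h and Atp5j fell. Atp5o, which ties the stalk to the head, had 10.59, 10.39 and 10.19 in neutrophils, 11.95, 12.12 and 12.10 in Mac1+ and 12.40, 12.17 and 12.28 in Mac1- myeloblasts (-1.67 ± 0.15 against Mac1+). Atp5pb, the b subunit of the same stalk, had 13.41, 12.74 and 12.53 in neutrophils, 13.10, 13.04 and 12.94 in Mac1+ and 13.13, 13.14 and 13.15 in Mac1- myeloblasts. Its first neutrophil array was the highest of the 9, it was not called (-0.13 ± 0.22), and without that array the difference was -0.39 and was called.

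Of the small membrane subunits 4 of 5 were lower than in Mac1+ myeloblasts, beside 28.5% of all genes and 44.7% of those not dim. Atp5mpl had 10.09, 9.65 and 9.57 in neutrophils, 11.39, 11.42 and 11.11 in Mac1+ and 11.61, 11.73 and 11.68 in Mac1- myeloblasts, and its neutrophil arrays were the lowest (-1.53 ± 0.17, limma adjusted p = 7.45e-05). Atp5md, also called DAPIT, which helps synthase dimers to line up in rows, differed by -1.15 ± 0.16. The call of Atp5j2 (-0.71 ± 0.22) held in 10 of the 19 alternative analyses. It was lost under the mean over probe sets and without x_at and s_at probe sets. An unused Atp5j2 probe set that was not dim differed by -0.14 from Mac1- myeloblasts and was not called. Atp5l, the g subunit, which helps the synthase to dimerise, had 10.96, 10.99 and 10.55 in neutrophils, 10.67, 10.99 and 10.87 in Mac1+ and 11.21, 10.54 and 10.82 in Mac1- myeloblasts. Its groups overlapped and it differed by -0.01 ± 0.21.

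**Figure D4:**
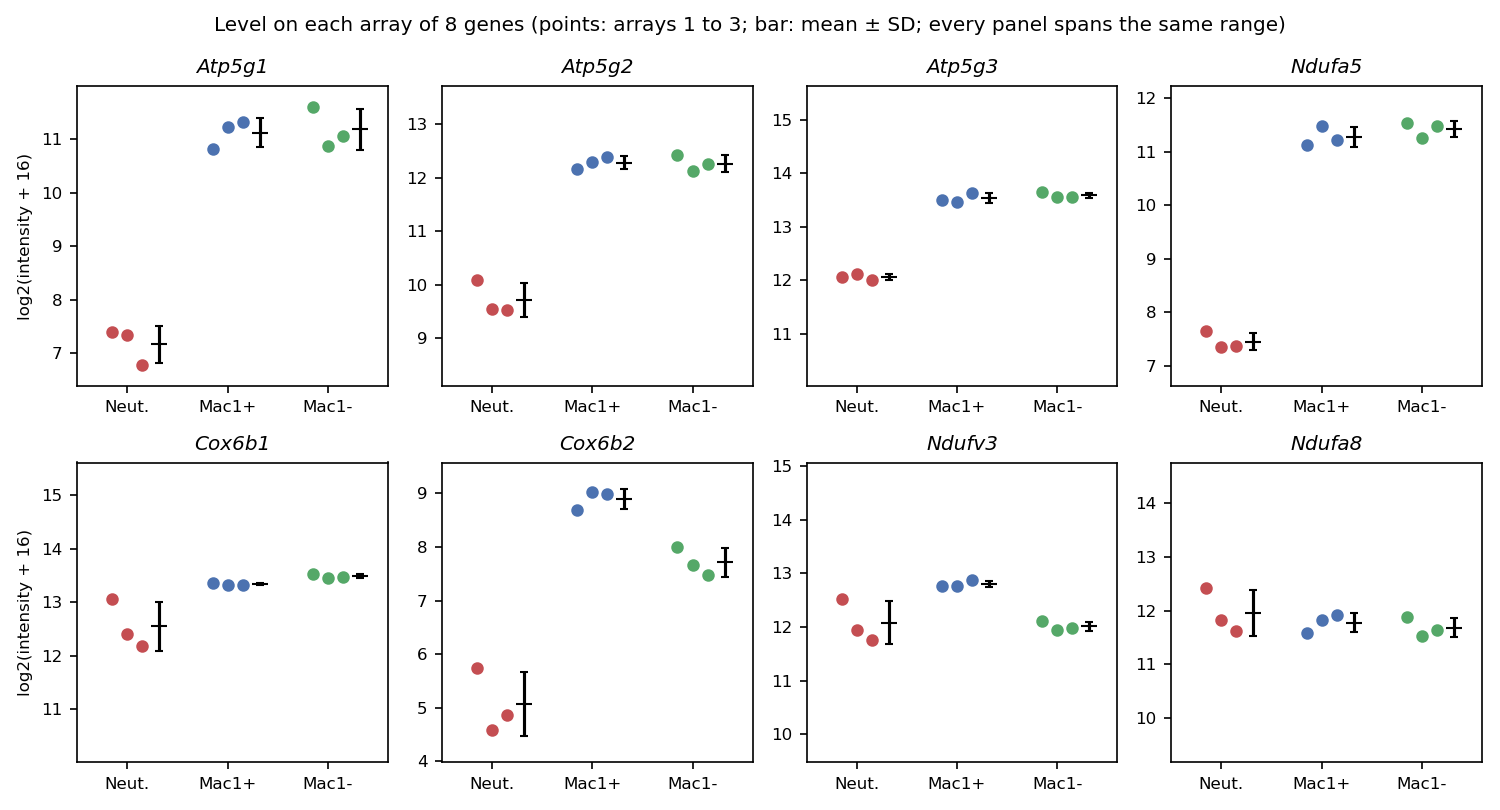
Levels of 8 genes on each array, as log2(intensity + 16), for neutrophils, Mac1+ and Mac1- myeloblasts; points are arrays 1 to 3, bars the mean ± SD, and every panel spans the same number of log2 units. The 3 c-subunit genes and Ndufa5 are lowest in neutrophils, Cox6b2 and Ndufv3 are highest in Mac1+ myeloblasts, and the groups of Ndufa8 overlap.

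Between the myeloblast populations the respiratory genes differed little. None of the 77 was lower in Mac1+ than in Mac1- myeloblasts by limma's adjusted p and 2 were higher, against 5.60% and 6.31% of all genes, and 3 had an unadjusted p under 0.05. The median difference was -0.05. Groups of 3 arrays lay apart for 23 genes with Mac1+ lower and for 8 with Mac1+ higher, as they did for 20.2% and 19.7% of all genes. Cox6b2 was 2.28-fold higher in Mac1+ than in Mac1- myeloblasts (1.19 ± 0.29, limma adjusted p = 0.030), so that it was highest in the middle population. Ndufv3, an accessory subunit of the NADH-binding end of complex I, had 12.77, 12.77 and 12.87 in Mac1+ and 12.11, 11.94 and 11.99 in Mac1- myeloblasts, and 12.53, 11.94 and 11.76 in neutrophils. It was 1.73-fold higher in Mac1+ than in Mac1- myeloblasts (0.79 ± 0.20, limma adjusted p = 0.034), and neutrophils did not overlap with Mac1+ but did with Mac1- myeloblasts. The call of Cox6b2 held in 13 and that of Ndufv3 in 11 of the 19 alternative analyses. Both were lost with an added constant of 1 in place of 16 and without any 1 of the Mac1+ arrays. Cox6b2 also lost its call without the second or the third Mac1- array, and Ndufv3 without any 1 of the Mac1- arrays and with the replicate block. The next in size were Ndufa10, at -0.44 ± 0.25, Atp5mpl, at -0.37 ± 0.17, and the complex III genes Uqcrfs1, at -0.34 ± 0.17, and Uqcrq, at -0.34 ± 0.16, none of them called. The summed monocyte and macrophage markers given above were lower in Mac1+ than in Mac1- myeloblasts, and their part in these differences was not tested.

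Other genes of the same pathway were read from lists of their own. By the same rule 28.5% of all genes were lower and 20.0% higher in neutrophils than in Mac1+ myeloblasts. Of the genes that were not dim 44.7% were lower. The counts below are to be read beside these shares. Of complex II, which feeds electrons from succinate, 3 of 4 genes were lower in neutrophils than in Mac1+ myeloblasts. Sdhc, a membrane anchor, had 8.28, 9.07 and 9.19 in neutrophils, 10.82, 11.05 and 11.16 in Mac1+ and 11.23, 10.96 and 11.01 in Mac1- myeloblasts (-2.17 ± 0.24 against Mac1+). Sdhb, the iron-sulfur subunit, was not called against Mac1+ (0.17 ± 0.16) and was lower in Mac1+ than in Mac1- myeloblasts (-0.62 ± 0.16, limma adjusted p = 0.037). Of 8 subunits and electron carriers that the naming rule does not reach 7 were lower, among them Cycs, the somatic cytochrome c, at -1.99 ± 0.16, Cyc1, the cytochrome c1 of complex III, at -1.27 ± 0.19, and Etfa and Etfb, which bring in electrons from fat oxidation, at -2.67 ± 0.15 and -2.95 ± 0.15. Gpd2, the glycerol-3-phosphate dehydrogenase that feeds electrons from the cytosol, went the other way: it had 12.00, 11.92 and 11.48 in neutrophils, 11.43, 11.47 and 11.37 in Mac1+ and 10.36, 10.44 and 10.36 in Mac1- myeloblasts. It was higher in neutrophils than in Mac1- myeloblasts (1.41 ± 0.16, limma adjusted p = 6.59e-05) and in Mac1+ than in Mac1- myeloblasts (1.04 ± 0.16), and was not called between neutrophils and Mac1+ myeloblasts (0.37 ± 0.16).

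Of the 13 subunits encoded by mitochondrial DNA 1 was measured. ND5, a proton-pumping subunit of complex I, had 10.74, 11.05 and 10.55 in neutrophils, 13.04, 12.81 and 12.88 in Mac1+ and 13.14, 13.07 and 13.05 in Mac1- myeloblasts. It was 4.38-fold lower in neutrophils than in Mac1+ myeloblasts (-2.13 ± 0.16, limma adjusted p = 5.14e-06), with no overlap. Of 12 genes for replication and transcription of mitochondrial DNA 7 were lower and none was higher than in Mac1+ myeloblasts, beside 28.5% and 20.0% of all genes. They were led by Tfam, which packages that DNA and starts its transcription. Tfam had 7.23, 8.06 and 7.80 in neutrophils, 11.04, 10.97 and 10.89 in Mac1+ and 11.29, 11.33 and 11.43 in Mac1- myeloblasts (-3.27 ± 0.21), and the transcription factor Tfb1m differed by -2.93 ± 0.23. The RNA polymerase Polrmt differed by -2.48 ± 0.28. Polg, the DNA polymerase, was at 10.76, 10.81 and 10.74 in neutrophils, 10.61, 10.77 and 10.98 in Mac1+ and 9.86, 9.74 and 9.66 in Mac1- myeloblasts, lowest in the Mac1- population and not called between the other two.

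Most of the listed assembly factors were lower in neutrophils than in Mac1+ myeloblasts, beside 28.5% of all genes and 44.7% of those not dim. Of 14 for complex I 9 were lower and 1 was higher in neutrophils than in Mac1+ myeloblasts. Ndufaf4 had 5.31, 5.65 and 4.67 in neutrophils, 9.40, 9.87 and 9.43 in Mac1+ and 10.66, 10.80 and 10.69 in Mac1- myeloblasts (-4.36 ± 0.25 against Mac1+), below the dim limit in neutrophils. Ndufaf6 and Ndufaf2 differed by -3.69 ± 0.25 and -3.47 ± 0.17. Nubpl, which delivers iron-sulfur clusters to complex I, was the exception at 9.96, 11.04 and 11.07 in neutrophils, 8.66, 9.06 and 9.14 in Mac1+ and 9.78, 9.53 and 9.53 in Mac1- myeloblasts (1.74 ± 0.30 against Mac1+, limma adjusted p = 0.000998). For complex III 4 of 6 were lower, among them Uqcc1 (-3.06 ± 0.17) and Uqcc2 (-2.25 ± 0.17). For complex IV 14 of 18 were lower and 2 were higher. Lrpprc, which stabilises mitochondrial messenger RNAs, had 6.32, 6.57 and 6.67 in neutrophils, 10.33, 10.45 and 10.55 in Mac1+ and 11.04, 11.01 and 11.08 in Mac1- myeloblasts (-3.92 ± 0.14). Cox18 differed by -3.73 ± 0.19, and Pet100 and Coa4 were higher in neutrophils, by 1.01 ± 0.27 and 0.61 ± 0.19. All 5 genes for assembly and inhibition of the ATP synthase were lower, from Tmem70 at -0.99 to the F1 assembly factor Atpaf2 at -3.42 ± 0.32, with the inhibitor Atpif1 at -2.27 ± 0.14.

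Of 11 genes of coenzyme Q synthesis 9 were lower than in Mac1+ myeloblasts, beside 28.5% of all genes. They were led by Coq7, a hydroxylase of that pathway, at 5.33, 6.62 and 7.13 in neutrophils, 10.53, 10.81 and 10.77 in Mac1+ and 10.75, 10.76 and 10.76 in Mac1- myeloblasts (-4.34 ± 0.38). Coq4 was higher, at 1.10 ± 0.22. Among 9 genes of nucleotide exchange, uncoupling and outer membrane channels 6 were lower, beside the same 28.5%. Slc25a4, an ADP/ATP carrier, fell in 2 steps, with 6.57, 6.35 and 6.30 in neutrophils, 9.62, 9.68 and 9.81 in Mac1+ and 12.34, 12.41 and 12.42 in Mac1- myeloblasts. All 3 populations were apart: the difference was -3.29 ± 0.14 between neutrophils and Mac1+ myeloblasts and -2.69 ± 0.14 between Mac1+ and Mac1- myeloblasts. Its relative Slc25a5 differed by -1.13 ± 0.15 and -0.13 ± 0.15 in the same comparisons.

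The last list held regulators known from work on mitochondrial genes. Of 11, 4 were lower and 2 higher in neutrophils than in Mac1+ myeloblasts, beside 28.5% and 20.0% of all genes. These counts are near those shares and say little about the regulators as a group. Pprc1, a coactivator of the PGC-1 family, had 5.16, 4.98 and 5.50 in neutrophils, 10.11, 10.40 and 10.45 in Mac1+ and 11.13, 10.99 and 11.04 in Mac1- myeloblasts (-5.11 ± 0.17, limma adjusted p = 6.79e-08). Myc had 6.80, 6.04 and 6.17 in neutrophils, 10.59, 11.08 and 11.27 in Mac1+ and 11.86, 11.74 and 11.66 in Mac1- myeloblasts (-4.64 ± 0.24), and neither overlapped between neutrophils and myeloblasts. Hcfc1, a cofactor of GABP and PGC-1 proteins, differed by -1.84 ± 0.26. Nrf1, the factor whose core is shown in the windows above, had 10.43, 9.74 and 9.77 in neutrophils, 8.80, 8.66 and 8.95 in Mac1+ and 8.63, 8.76 and 8.94 in Mac1- myeloblasts, and was higher in neutrophils (1.18 ± 0.21, limma adjusted p = 0.0013). Ppargc1a, the coactivator PGC-1 alpha, was higher by 1.50 ± 0.52, with 7.43, 5.99 and 4.89 in neutrophils and 4.35 to 4.74 on the Mac1+ arrays, so that it was above the dim limit on 2 of 3 neutrophil arrays.

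**Figure D5:**
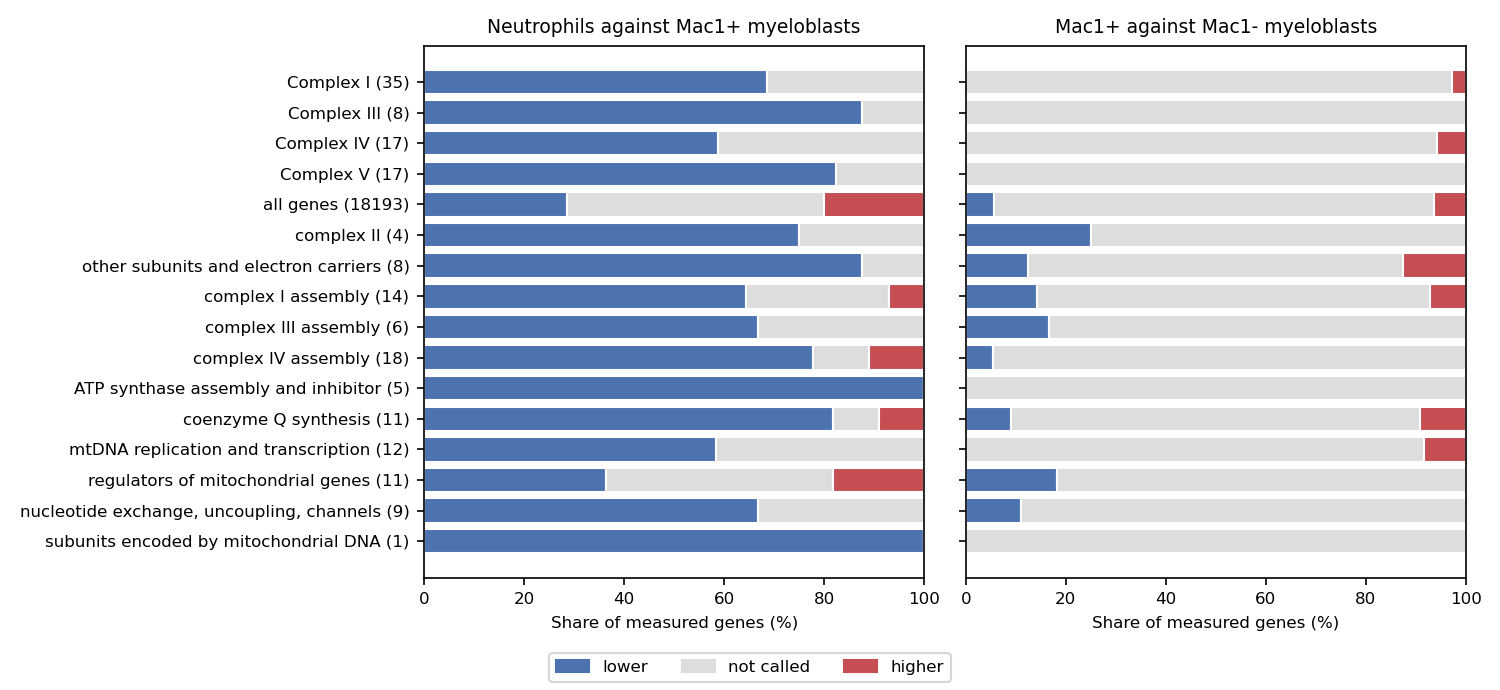
Share (%) of the measured genes of each complex, of all 18193 genes and of the other lists (numbers in brackets) that were lower (blue), higher (red) or not called (grey), for neutrophils against Mac1+ myeloblasts and for Mac1+ against Mac1- myeloblasts. In the first panel every complex and every other list except the regulators has more than 50% of its genes lower, against 28.5% of all genes, and in the second the complexes hold 2 calls in all.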

How the data were processed

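RNA was extracted with RNeasy columns, amplified in 2 cycles and biotin-labelled, per the labels' protocols. The authors deposited a table of intensity values for 45101 probe sets on 9 arrays; the background correction, summary and scaling behind it are not given in the sources used here, and array means (549.4 to 727.4) and medians (39.1 to 61.8) differ. From these intensities, log2(intensity + 16) was taken with no further scaling. Control probe sets and those with several symbols (9 that name a subunit) or none were left out, leaving 34945, of which 155 belong to the 77 genes, and only the brightest per gene was kept. Brightness limits the precision: 5 of the 77 genes were dim.

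All 9 arrays were fitted together with limma 3.58.1 in R 4.3.3 (lmFit, eBayes), with 1 mean per population, Benjamini-Hochberg adjustment over 18193 genes and a threshold of 0.05. The fit was tested on simulated data. The 19 alternatives were quantile normalization, median centring, constants of 1 and 64, a filter on dim genes, the mean over probe sets, no x_at or s_at probe sets, a trended robust prior, only the 2 populations compared, a replicate block and leaving out each array. The labels state no pairing of arrays, and the main fit used none. Correlations of deviations between same-numbered arrays ran from -0.304 to 0.128 over 9 pairs, 1 of them over 0.1. Between arrays of different number they ran from -0.167 to 0.286 over 18 pairs, 3 of them over 0.1. With 3 arrays per population these values cannot show whether arrays were paired.

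Members may all be named; values by array, or ranges over a population's arrays, are given for the 3 largest calls per complex and comparison, the brightest genes not called and the alternative forms of a subunit, and of each other list up to 4 genes with the largest differences. The members, lists and roles were chosen with earlier results of these data known. A planned comparison of isoform protein sequences was not run.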

Additional observations from a re-analysis of the deposited data

How the results depend on the processing

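Of the results for the 77 genes and for each complex, 350 of 399 alternative values stayed within 1.5 times the main count or within the spread between replicates, and 49 moved further. Centring each array on its median, which moves the median of all genes from 0.05 to 0.33 for neutrophils against Mac1+ myeloblasts, gave medians of -0.65 over all 77 genes and -0.65, -0.90, -0.45 and -0.81 for complexes I, III, IV and V, with 3 genes higher. Against Mac1- myeloblasts it gave -0.46, and -0.43, -0.74, -0.38 and -0.62 by complex, with 8 genes higher, and for Mac1+ against Mac1- myeloblasts 0.14, and 0.18, 0.12, 0.12 and 0.14, with 4 higher. Quantile normalization gave -0.77 over all genes of the set and -0.97, -0.51 and -0.87 for complexes III, IV and V against Mac1+, and -0.76, -0.61 (IV) and -0.88 (V) against Mac1- myeloblasts. With the mean over probe sets, 2 genes were higher than in Mac1+ and 1 higher than in Mac1- myeloblasts, 1 was lower in Mac1+ than in Mac1- myeloblasts, and the medians against Mac1- were -0.75 for complex I and -0.65 for complex IV. Cox6a2 turned to -0.55 in neutrophils against Mac1- myeloblasts under this mean. Without x_at and s_at probe sets 2 genes were higher in neutrophils than in Mac1+ myeloblasts (Uqcrq and Atp5c1, each read from its brightest remaining probe set), and the complex V median against Mac1- was -1.40. Between the myeloblast populations, 0 genes were higher with a constant of 1 and 6 were lower when these populations were fitted alone. With replicate number as a block, 1 was higher in Mac1+ than in Mac1- myeloblasts, and the counts of lower genes in neutrophils were 54 and 52, so no other count moved by over 1.5 times. The cause of these shifts was not tested.

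Leaving out 1 array gave 50 to 62 genes lower and 0 to 3 higher in neutrophils than in Mac1+ myeloblasts, with a median of -1.10 to -0.88 (complex I -1.14 to -0.75, III -1.24 to -1.11, IV -0.91 to -0.60, V -1.18 to -1.01). Against Mac1- myeloblasts it gave 47 to 64 lower and 0 to 2 higher, with a median of -1.02 to -0.85 (complex I -1.05 to -0.85, III -1.30 to -1.13, IV -0.98 to -0.68, V -1.19 to -1.05). The genes higher in neutrophils appeared without neutrophil array 3. Between Mac1+ and Mac1- myeloblasts it gave 0 to 3 lower (3 without neutrophil array 1) and 0 to 3 higher, with medians of -0.08 to -0.01. Of the genes called with 9 arrays, 44 of 55, 38 of 52 and 0 of 2 were called in the same direction in all 19 alternatives. With several probe sets above the dim limit for 43 genes, all pointed the same way for 38 against Mac1+ and 37 against Mac1- myeloblasts. Brightness limits what the 5 dim genes can show.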
